A study of Homo sapiens with 12 samples.

Results

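The HOX genes are the homeobox genes that lie in 4 clusters, HOXA, HOXB, HOXC and HOXD, and carry a number for their place in the cluster. Members were symbols made of HOX, a cluster letter and a number in the deposited table, with no minimum level and with antisense symbols left out. The members described here are 33 of the 24556 gene symbols, with 8 in HOXA, 10 in HOXB, 6 in HOXC and 9 in HOXD. A further 5 HOX genes stood in 2 rows with joined symbols, HOXC4-HOXC5-HOXC6 and HOXA10-HOXA9, and these rows are described beside the 33 members and not counted with them.

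RNA was sequenced from LM2 cells, which derive from the MDA-MB-231 breast cancer line and were selected for growth in the lung, in 4 groups of 3 libraries. The groups were cells transduced with an EZH2 shRNA, cells transfected with a ZRANB1 siRNA, cells transfected with a scramble siRNA and cells transduced with a scramble shRNA. The study was built to compare each knockdown with its own control, and all cells came from the same line. The labels do not say how many hairpins or siRNA sequences were used, or whether the 3 libraries came from separate cultures, so the spread between them may be technical. EZH2 is the catalytic subunit of Polycomb repressive complex 2, which methylates histone H3 at lysine 27, and ZRANB1 is a deubiquitinase.

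HOX genes encode homeodomain transcription factors that give cells their position along the body axis, low numbers towards the head and high numbers towards the tail. Adult cells keep part of this pattern and hold the other HOX genes silent. The HOX clusters are textbook targets of Polycomb repression, which silences blocks of neighbouring HOX genes.

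The values are FPKM, fragments scaled by transcript length and by library size, so levels can be set side by side between genes of different length. Depth per library is not given, and no counting interval can be made. A gene was tested where its mean over the 12 values was at least 0.1 FPKM, with limma on log2(FPKM + 1) and Benjamini-Hochberg adjustment over 14709 genes, and was called at an adjusted p below 0.05. Fold changes are on that log2 scale and understate the change of low genes. Within a group the 3 values stood in the text order of their digits in every row with 3 different values, so a column does not follow 1 library, and values are given here from low to high. EZH2 had 16.1, 16.1 and 17.3 FPKM with EZH2 shRNA, against 34.2, 35.6 and 36.3 FPKM with scramble shRNA, which was 46.6% of the control mean (log2 fold change -1.06, limma adjusted p = 1.79e-05). ZRANB1 had 9.05, 9.49 and 11.5 FPKM in the libraries labelled ZRANB1 siRNA, against 10.5, 11.5 and 12.1 FPKM with scramble siRNA, and was not called (limma adjusted p = 0.376). The ranges of ZRANB1 overlapped, so its mRNA does not check that label, and every ZRANB1 siRNA value below is that of the libraries so labelled. EZH2 was also lower there, at 30.4 ± 2.08 FPKM against 48.6 ± 2.1 FPKM with scramble siRNA (SD, n = 3 each). The mesenchymal breast line markers VIM and CD44 averaged 2670 and 212 FPKM over the 12 values. The luminal hormone receptor genes ESR1 and PGR averaged 0.0102 and 0 FPKM. The other luminal markers listed were higher, with KRT18 at 297 FPKM, GATA3 at 5.03 FPKM, ERBB3 at 1.62 FPKM and FOXA1 at 0.378 FPKM.

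By the threshold of a mean below 0.1 FPKM over the 12 values, 18 of the 33 members were silent and 15 were not. HOXA had 7 silent members of 8, HOXB 2 of 10, HOXC 3 of 6 and HOXD 6 of 9. By position number, 4 of 10 members at positions 1 to 4 were silent, 5 of 12 at positions 5 to 9 and 9 of 11 at positions 10 to 13. Most silent members lay in runs of neighbouring members, but not all. The silent members were HOXA2 to HOXA7 and HOXA11 in HOXA, and the single end genes HOXB1 and HOXB13 in HOXB. In HOXC they were HOXC11 to HOXC13, and in HOXD they were HOXD8 to HOXD13. Every member at positions 11 and 12 was silent. These are bulk RNA values, in which fewer cells expressing a gene and less of its RNA per cell cannot be told apart.

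**Figure D1:**
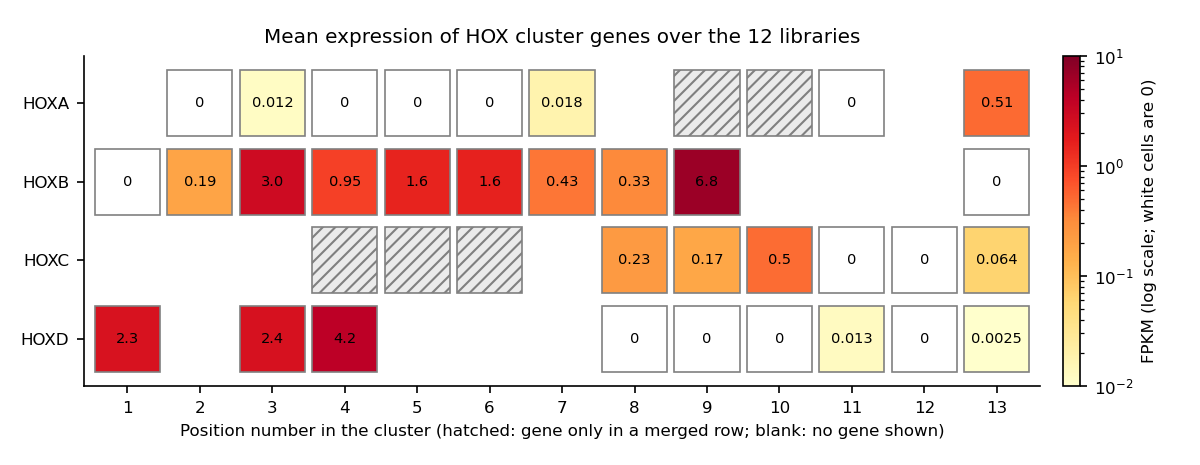
Mean FPKM over the 12 libraries for each of the 33 members, with the 4 clusters as rows and the position number as columns; colour is on a log scale and white cells are listed at 0. HOXB2 to HOXB9 form a filled run, while HOXA2 to HOXA7 and HOXD8 to HOXD13 are at or near 0; hatched cells are the 5 genes in joined rows.

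Of the 18 silent members, 13 were listed at 0 in all 12 values. A 0 in a table without counts can be a failed estimate, so these members are given as listed at 0. The 5 silent members with a value above 0 were HOXA3, HOXA7, HOXC13, HOXD11 and HOXD13. HOXA3 reached 0.0454 FPKM in 1 EZH2 shRNA value, and 0.0448 and 0.052 FPKM in scramble shRNA values. HOXA7 reached 0.0573, 0.0922 and 0.0707 FPKM in 1 value each of the EZH2 shRNA, ZRANB1 siRNA and scramble siRNA groups. HOXD11 and HOXD13, which shape the limbs and digits, had 1 value above 0 each, 0.15 FPKM in a scramble shRNA value and 0.0298 FPKM in a ZRANB1 siRNA value. HOXC13 was the only 1 of the 5 with all 3 values of a group above 0, in the ZRANB1 siRNA and scramble siRNA groups.

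The silent set was nearly the same in each group. It held 18 members with EZH2 shRNA, 20 with ZRANB1 siRNA, 18 with scramble siRNA and 18 with scramble shRNA, and 17 members were below 0.1 FPKM in every group. The 4 members that were silent in some groups only were HOXB2, HOXC8, HOXC9 and HOXC13. HOXB2 and HOXC9 fell below the threshold with ZRANB1 siRNA, HOXC8 did so with scramble siRNA, and HOXC13 was above it only with scramble siRNA. The members nearest to the threshold were HOXC13 on the silent side, at a mean of 0.0643 FPKM over the 12 values, and HOXC9 and HOXB2 on the other, at 0.174 and 0.186 FPKM. The silent sets with EZH2 shRNA and with scramble shRNA held the same 18 members.

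HOXB held the highest summed level in all 4 groups. Its 10 group means summed to 10.3 FPKM with EZH2 shRNA, 16.8 FPKM with ZRANB1 siRNA, 22.4 FPKM with scramble siRNA and 9.58 FPKM with scramble shRNA. HOXD followed, with 7.93 FPKM with EZH2 shRNA, 8.59 FPKM with ZRANB1 siRNA, 9.99 FPKM with scramble siRNA and 8.96 FPKM with scramble shRNA. HOXC summed to between 0.671 and 1.37 FPKM and HOXA to between 0.306 and 0.692 FPKM. Over all 33 members the sums were 19.6 FPKM with EZH2 shRNA, 27.0 FPKM with ZRANB1 siRNA, 34.0 FPKM with scramble siRNA and 19.9 FPKM with scramble shRNA. HOXB9 alone gave 21.2% of the sum with EZH2 shRNA, 32.5% with ZRANB1 siRNA, 32.9% with scramble siRNA and 15.0% with scramble shRNA. A library cannot be followed from row to row, so the sums carry no SD and were not tested.

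**Figure D2:**
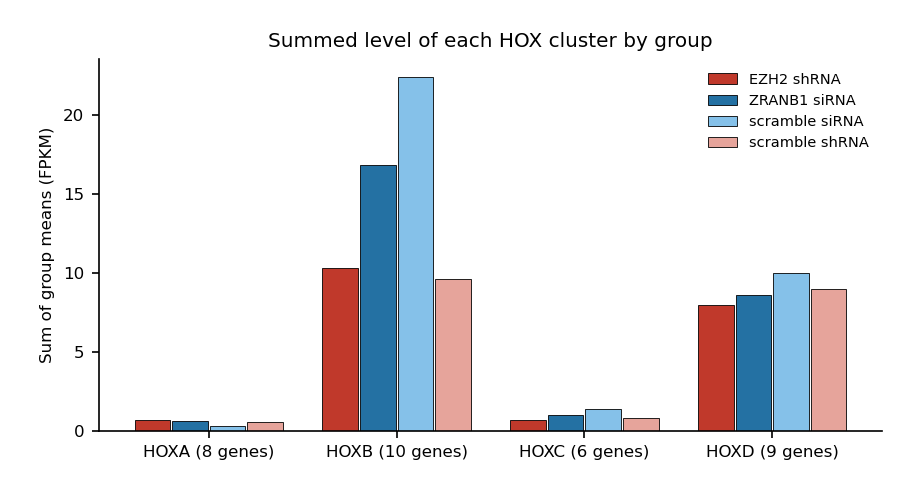
Sum of the group means in FPKM for the members of each cluster, with a bar for each group. The HOXB bar stands at 22.4 FPKM with scramble siRNA and at 9.58 FPKM with scramble shRNA, while the HOXD bars lie between 7.93 and 9.99 FPKM; no error bars can be drawn because columns do not follow libraries.

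The filter left out the 18 silent members. Of the 15 members tested, 1 was higher with EZH2 shRNA than with scramble shRNA and none was lower, beside 5.73% of all genes tested that were called in either direction. A count of 1 in 15 is near that background and is not a result about HOX genes. At an unadjusted p below 0.05, 1 member was higher and 1 lower, beside 1396 higher and 1575 lower of all 14709 genes. The median log2 fold change of the 15 members was -0.03, against -0.01 over all genes tested.

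HOXB9, a HOX gene of the trunk region that has been studied in breast cancer, was the member called. It had 3.71, 4.22 and 4.52 FPKM with EZH2 shRNA, against 2.67, 3.04 and 3.23 FPKM with scramble shRNA. The ranges did not overlap, and the ratio of means was 1.39 (log2 fold change 0.37, 95% interval 0.17 to 0.57, limma adjusted p = 0.0389). The exact permutation test gave p = 0.1, two-sided, which is the smallest p that 3 against 3 values allow. The call was lost with no filter on low values (limma adjusted p = 0.0517), with the 2 groups fitted alone and in 9 of 12 fits that left out 1 value. Over all these settings its adjusted p ran from 0.0302 to 0.167. The 12 fits, here and below, dropped values of all 4 groups in turn. A fit that dropped a value outside the 2 compared groups left the fold change as it was and could change only the p.

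The other 14 tested members were not called with EZH2 shRNA. HOXB4, known for expanding blood stem cells when overexpressed, had 0.311, 0.365 and 0.544 FPKM with EZH2 shRNA, against 0.508, 0.832 and 0.974 FPKM with scramble shRNA. The ranges of HOXB4 overlapped slightly (log2 fold change -0.33, 95% interval -0.63 to -0.02, limma adjusted p = 0.215). For the remaining 13 the log2 fold changes lay between -0.27 for HOXD4 and 0.16 for HOXB7. The 95% intervals of the 14 reached from -0.63 for HOXB4 to 0.49 for HOXB7. With 3 values a group, the lack of a call does not show that a member was unchanged.

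In the libraries labelled ZRANB1 siRNA, 3 of the 15 tested members were lower than with scramble siRNA and none was higher. Of all genes tested, 14.7% were called in either direction and 5.8% were lower. A count of 3 in 15 is near the first share and above the second, and whether the members moved as a set was not tested. Signs were negative for 12 of the 15 members, beside 7691 of all 14709 genes. The median log2 fold change of the members was -0.15, against -0.01 over all genes tested. At an unadjusted p below 0.05, 7 members were lower and 0 higher, beside 1913 lower and 2124 higher of all 14709 genes. The 3 called members, HOXB2, HOXB3 and HOXB9, all lie in HOXB, the cluster of 8 of the 15 tested members.

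HOXB2, a hindbrain patterning gene, had 0, 0 and 0.0593 FPKM in the libraries labelled ZRANB1 siRNA, against 0.244, 0.351 and 0.475 FPKM with scramble siRNA. The ranges did not overlap (log2 fold change -0.41, 95% interval -0.61 to -0.2, limma adjusted p = 0.0134), and both means were below 1 FPKM. The call held in 6 of 6 other fits and in 11 of 12 fits that left out 1 value. HOXB3, also a hindbrain patterning gene, had 2.89, 3.08 and 3.18 FPKM with ZRANB1 siRNA, against 4.19, 4.27 and 4.42 FPKM with scramble siRNA. All 3 values of HOXB3 with ZRANB1 siRNA lay below those with scramble siRNA, at 70.9% of the control mean (log2 fold change -0.39, 95% interval -0.6 to -0.18, limma adjusted p = 0.0184). This call was lost in 4 of 12 fits that left out 1 value, with adjusted p up to 0.0671. All 4 dropped 1 of the 3 ZRANB1 siRNA values or 1 of the 3 scramble siRNA values.

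HOXB9 had 7.9, 8.94 and 9.49 FPKM in the libraries labelled ZRANB1 siRNA, against 10.8, 11.4 and 11.4 FPKM with scramble siRNA. The ranges did not overlap, at 78.5% of the control mean (log2 fold change -0.32, 95% interval -0.52 to -0.12, limma adjusted p = 0.0378). The call of HOXB9 was lost with a pseudocount of 0.1 FPKM, with no filter, with the 2 groups alone and in 6 of 12 fits that left out 1 value. All but 1 of those 6 dropped a ZRANB1 siRNA or scramble siRNA value, and leaving out any of the 3 scramble siRNA values lost the call. For each of the 3 genes the exact permutation test gave its smallest possible p, 0.1, two-sided. HOXB4, HOXC9 and HOXD4 also had no overlap between the groups but were not called, at limma adjusted p of 0.0873, 0.161 and 0.18. The share of all genes without overlap was not counted, so the lack of overlap in these members is not a result about HOX genes. HOXB4 averaged 0.992 ± 0.227 FPKM with ZRANB1 siRNA and 1.63 ± 0.418 FPKM with scramble siRNA (SD, n = 3 each). HOXC9 averaged 0.0939 ± 0.0908 FPKM with ZRANB1 siRNA and 0.293 ± 0.0927 FPKM with scramble siRNA.

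**Figure D3:**
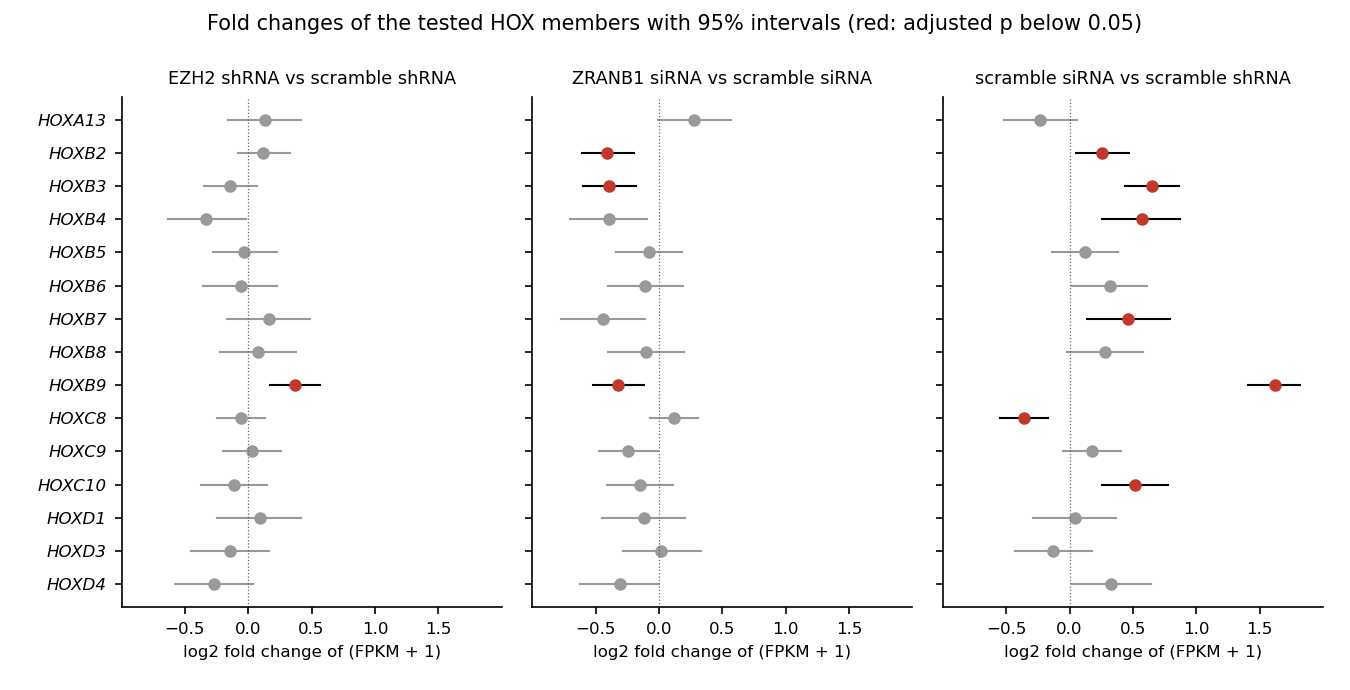
Log2 fold change of (FPKM + 1) with its 95% interval for the 15 tested members in 3 comparisons; red points have an adjusted p below 0.05. HOXB9 is the 1 red point with EZH2 shRNA at 0.37; HOXB2, HOXB3 and HOXB9 lie left of 0 with ZRANB1 siRNA, and HOXB9 stands at 1.62 between the scramble controls.

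The ZRANB1 siRNA and EZH2 shRNA comparisons were set against each other by the interaction contrast, the ZRANB1 siRNA effect minus the EZH2 shRNA effect. It called 2 of the 15 members, HOXB9 and HOXB2, beside 9.16% of all genes tested. A count of 2 in 15 is near that share and is not a result about HOX genes. For HOXB9 the difference was -0.69 on the log2 scale (95% interval -0.98 to -0.41, limma adjusted p = 0.00632). It was called in 6 of 6 other fits and 12 of 12 fits that left out 1 value, with adjusted p from 0.0046 to 0.0195. The control means of HOXB9 lay far apart, at 11.2 FPKM with scramble siRNA and 2.98 FPKM with scramble shRNA. Its means with ZRANB1 siRNA and EZH2 shRNA, 8.78 and 4.15 FPKM, both lay between them. For HOXB2 the difference was -0.53 (95% interval -0.82 to -0.24, limma adjusted p = 0.0288), and the call was lost in 6 of 12 fits that left out 1 value. HOXB2 had 0.185, 0.21 and 0.298 FPKM with EZH2 shRNA, against 0, 0.165 and 0.239 FPKM with scramble shRNA, and these ranges overlapped.

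More genes were called between the scramble controls than in the EZH2 shRNA or the ZRANB1 siRNA comparison. Between scramble siRNA and scramble shRNA, 6 of 15 tested members were higher and 1 was lower, beside 23.1% and 23.5% of all genes tested and 46.6% in either direction. A total of 7 in 15 is near that background. The median log2 fold change of the 15 members was 0.28, with 12 positive signs, against -0.00 over all genes tested. This comparison shares scramble siRNA with the ZRANB1 siRNA comparison and scramble shRNA with the EZH2 shRNA comparison, so its values are not independent of theirs. Delivery, by transfection or by transduction, and any other difference between the siRNA and shRNA experiments cannot be told apart.

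HOXB9 had 10.8, 11.4 and 11.4 FPKM with scramble siRNA, against 2.67, 3.04 and 3.23 FPKM with scramble shRNA. The groups lay far apart, with a ratio of means of 3.75 (log2 fold change 1.62, 95% interval 1.41 to 1.82, limma adjusted p = 1.10e-07). HOXB9 was the first of the members by level with EZH2 shRNA, ZRANB1 siRNA and scramble siRNA, although its EZH2 shRNA range overlapped with that of HOXD4. With scramble shRNA it was second to HOXD4, whose values of 3.53, 4.01 and 4.71 FPKM all lay above those of HOXB9. HOXB3 had 4.19, 4.27 and 4.42 FPKM with scramble siRNA, against 2.31, 2.33 and 2.51 FPKM with scramble shRNA (log2 fold change 0.65, limma adjusted p = 2.00e-04). HOXB4 had 1.27, 1.52 and 2.09 FPKM with scramble siRNA, against 0.508, 0.832 and 0.974 FPKM with scramble shRNA (log2 fold change 0.57, limma adjusted p = 0.00605). The ranges of HOXB3 and HOXB4 did not overlap, and their calls held in every fit that kept the gene.

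HOXC10, a gene of lumbar motor neurons and the hindlimb, had 0.671, 0.766 and 1.13 FPKM with scramble siRNA, against 0.242, 0.256 and 0.35 FPKM with scramble shRNA. It was called in every fit that kept it (log2 fold change 0.52, limma adjusted p = 0.00361). HOXB7, which has been linked to breast cancer cell invasion, had 0.435, 0.789 and 1.04 FPKM with scramble siRNA, against 0.234, 0.271 and 0.274 FPKM with scramble shRNA. Its ranges did not overlap (log2 fold change 0.46, limma adjusted p = 0.0247), but 5 of 12 fits that left out 1 value lost the call. All 5 dropped a value of the 2 controls. HOXB2, with 0.244, 0.351 and 0.475 FPKM with scramble siRNA against 0, 0.165 and 0.239 FPKM with scramble shRNA, was at the edge of the threshold (log2 fold change 0.26, limma adjusted p = 0.0404). It lost its call with a pseudocount of 0.1 FPKM, with the 2 groups alone and in 4 of 12 fits that left out 1 value. All 4 dropped a value of the 2 controls.

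HOXC8, which specifies motor neurons at forelimb level, was the called member that went the other way. It had 0, 0.0342 and 0.18 FPKM with scramble siRNA, against 0.273, 0.39 and 0.456 FPKM with scramble shRNA (log2 fold change -0.36, 95% interval -0.55 to -0.17, limma adjusted p = 0.00501). In HOXC the neighbours HOXC8 and HOXC10 thus had opposite signs, while HOXC9, between them, was not called (log2 fold change 0.18, limma adjusted p = 0.186). HOXC13, a regulator of hair keratin genes and silent over the 12 values, had 0.13, 0.152 and 0.176 FPKM with scramble siRNA, against 0, 0 and 0.0577 FPKM with scramble shRNA. It was below the filter, and in the fit with no filter its log2 fold change was 0.178 (limma adjusted p = 7.22e-04). The values at 0 narrow the spread in that fit, so this p gives no firm support for a difference. HOXC13 had 0.0667, 0.07 and 0.12 FPKM with ZRANB1 siRNA and was listed at 0 in all 3 EZH2 shRNA values.

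**Figure D4:**
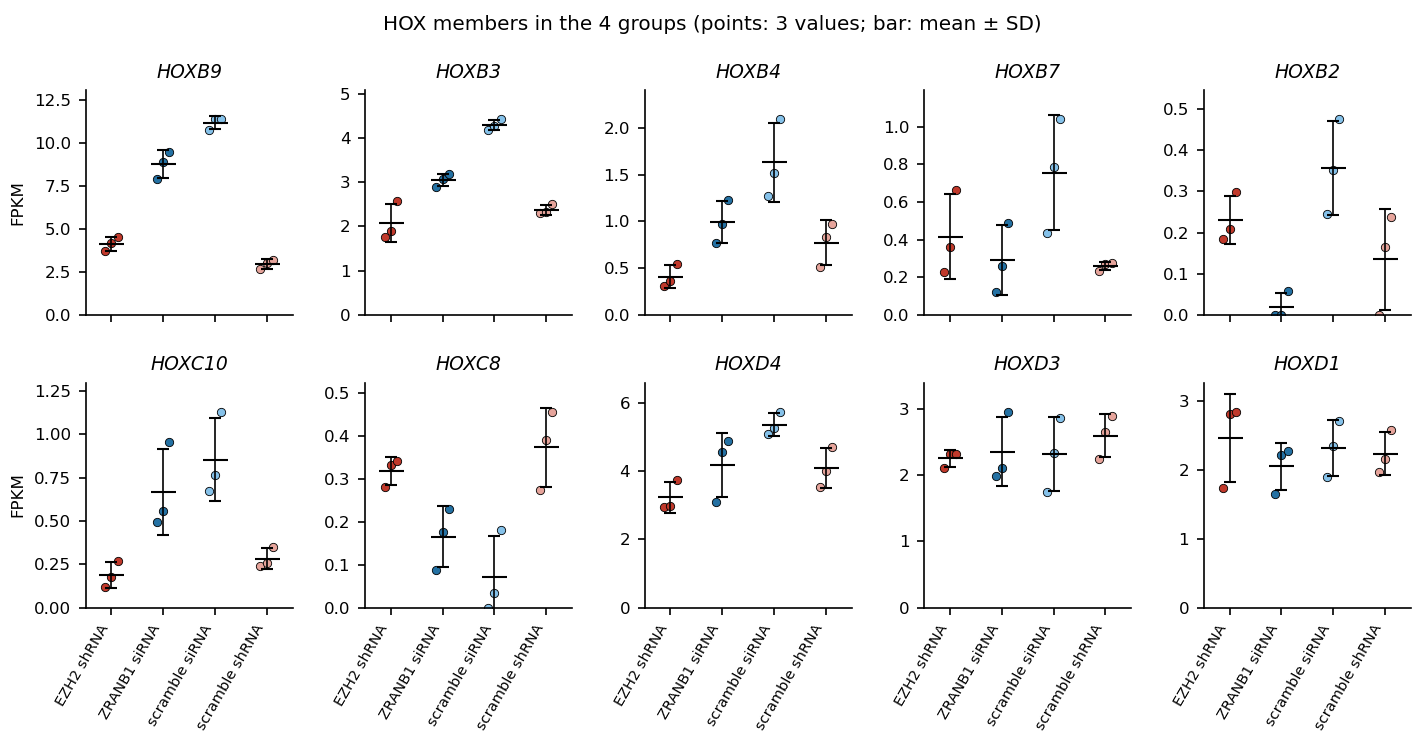
FPKM of 10 members in the 4 groups, with points for the 3 values, a horizontal bar for the mean and whiskers for ± 1 SD; each panel has its own axis from 0. HOXB9 lies at 10.8 to 11.4 FPKM with scramble siRNA and at 2.67 to 3.23 FPKM with scramble shRNA, HOXC8 runs the other way, and the groups overlap for HOXD1 and HOXD3.

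Markers of other cell types also moved between the controls. The 3 basal keratinocyte markers KRT5, KRT14 and TP63 summed to 0.658 FPKM with EZH2 shRNA, 0.312 FPKM with ZRANB1 siRNA, 0.0919 FPKM with scramble siRNA and 1.22 FPKM with scramble shRNA. KRT5 and KRT14 were listed at 0 in all 3 scramble siRNA values. The 4 fibroblast markers summed to 19.9 FPKM with EZH2 shRNA, 17.2 FPKM with ZRANB1 siRNA, 8.14 FPKM with scramble siRNA and 24.9 FPKM with scramble shRNA. Nearly all of it was COL1A1, and the others averaged at most 0.171 FPKM over the 12 values. The 6 luminal breast markers summed to 253 FPKM with EZH2 shRNA, 324 FPKM with ZRANB1 siRNA, 360 FPKM with scramble siRNA and 281 FPKM with scramble shRNA, most of it KRT18. The 3 endothelial markers summed to between 0.345 and 1.63 FPKM. Most of this was PECAM1, at 0.316 FPKM with scramble siRNA and 1.57 FPKM with scramble shRNA, while VWF and CDH5 averaged 0.0409 and 0.0147 FPKM. PECAM1, the 1 tested, was called lower with scramble siRNA than with scramble shRNA. It was called higher with ZRANB1 siRNA than with scramble siRNA. The blood markers summed to 36.6 FPKM with EZH2 shRNA, 43.0 FPKM with ZRANB1 siRNA, 42.4 FPKM with scramble siRNA and 35.4 FPKM with scramble shRNA. Most of this was CD68, at a mean of 38.0 FPKM over the 12 values, with HBB at 1.39 FPKM and PTPRC at 0.0118 FPKM. Of the 6 mesenchymal breast line markers, 2 were called higher and 3 lower with scramble siRNA than with scramble shRNA. Of all genes tested, 23.1% were higher and 23.5% lower there. CD44 averaged 118 FPKM with scramble siRNA and 264 FPKM with scramble shRNA. AXL and CAV1 went the other way, at 349 and 333 FPKM with scramble siRNA and 316 and 273 FPKM with scramble shRNA. The part of these shifts in the HOX differences was not tested.

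The HOXB genes between HOXB3 and HOXB9 were not alike. HOXB5 had 1.14, 1.51 and 1.69 FPKM with EZH2 shRNA, 1.43, 1.55 and 1.67 FPKM with ZRANB1 siRNA, 1.45, 1.58 and 2.09 FPKM with scramble siRNA, and 1.27, 1.45 and 1.74 FPKM with scramble shRNA. All 4 ranges of HOXB5 overlapped, and no comparison called it. HOXB6 had 0.936, 1.29 and 1.59 FPKM with EZH2 shRNA, 1.39, 1.91 and 1.91 FPKM with ZRANB1 siRNA, 1.58, 1.9 and 2.38 FPKM with scramble siRNA, and 1.22, 1.31 and 1.55 FPKM with scramble shRNA. Its scramble ranges were just apart, and it was not called (limma adjusted p = 0.0744). HOXB8 averaged 0.282 ± 0.165 FPKM with EZH2 shRNA, 0.371 ± 0.162 FPKM with ZRANB1 siRNA, 0.479 ± 0.253 FPKM with scramble siRNA and 0.203 ± 0.0201 FPKM with scramble shRNA (SD, n = 3 each), and was not called.

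HOXA13, which acts in the digits and the genital tract, was the 1 HOXA member that was not silent, with its neighbour HOXA11 listed at 0 throughout. It averaged 0.658 ± 0.229 FPKM with EZH2 shRNA, 0.57 ± 0.234 FPKM with ZRANB1 siRNA, 0.283 ± 0.0844 FPKM with scramble siRNA and 0.51 ± 0.146 FPKM with scramble shRNA (SD, n = 3 each). The groups overlapped in each comparison and HOXA13 was not called, with limma adjusted p of 0.642 with EZH2 shRNA, 0.193 with ZRANB1 siRNA and 0.171 between the controls.

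HOXD1, HOXD3 and HOXD4, the low-numbered end of HOXD, were expressed in every library, while HOXD8 to HOXD13 were silent in every group. HOXD4 and HOXD3 take part in patterning the neck vertebrae in mice. HOXD4 had 2.94, 2.99 and 3.75 FPKM with EZH2 shRNA, 3.1, 4.55 and 4.89 FPKM with ZRANB1 siRNA, 5.08, 5.26 and 5.74 FPKM with scramble siRNA, and 3.53, 4.01 and 4.71 FPKM with scramble shRNA. Its scramble siRNA values were the highest and overlapped with neither of the groups set against them, but no comparison called it, with limma adjusted p of 0.332 with EZH2 shRNA, 0.18 with ZRANB1 siRNA and 0.0791 between the controls. The fit of the 2 controls alone did call it (limma adjusted p = 0.0443), as did 1 of 12 fits that left out 1 value. HOXD3 had 2.1, 2.31 and 2.32 FPKM with EZH2 shRNA, 1.99, 2.11 and 2.95 FPKM with ZRANB1 siRNA, 1.74, 2.33 and 2.86 FPKM with scramble siRNA, and 2.24, 2.65 and 2.88 FPKM with scramble shRNA. HOXD1 had 1.73, 2.81 and 2.84 FPKM with EZH2 shRNA, 1.65, 2.22 and 2.27 FPKM with ZRANB1 siRNA, 1.9, 2.35 and 2.71 FPKM with scramble siRNA, and 1.96, 2.16 and 2.57 FPKM with scramble shRNA. All 4 ranges of HOXD3 and of HOXD1 overlapped, and within each group HOXD3 and HOXD1 did not differ beyond their spread.

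The windows around the start sites of these HOXD genes show the sequence on the 2 sides of the step between expressed and silent members. Each is 300 bases of RefSeq GRCh38.p14 on the plus strand of chromosome 2, 250 before to 50 after the start, and capitals mark CG, a motif that reads the same on both strands. The build differs from the hg19 of the deposited table, and the windows carry no measurement of their own. The expressed HOXD1 (chr2:176188418-176188717), HOXD3 (chr2:176157057-176157356) and HOXD4 (chr2:176151300-176151599) come first, then the silent HOXD8 (chr2:176129455-176129754) and HOXD10 (chr2:176116528-176116827).
HOXD1: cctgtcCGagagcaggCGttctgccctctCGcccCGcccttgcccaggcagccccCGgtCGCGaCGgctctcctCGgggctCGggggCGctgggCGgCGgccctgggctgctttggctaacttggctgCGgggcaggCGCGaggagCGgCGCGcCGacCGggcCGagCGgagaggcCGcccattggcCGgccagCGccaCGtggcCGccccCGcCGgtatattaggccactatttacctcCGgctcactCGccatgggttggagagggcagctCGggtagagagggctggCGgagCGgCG
HOXD3: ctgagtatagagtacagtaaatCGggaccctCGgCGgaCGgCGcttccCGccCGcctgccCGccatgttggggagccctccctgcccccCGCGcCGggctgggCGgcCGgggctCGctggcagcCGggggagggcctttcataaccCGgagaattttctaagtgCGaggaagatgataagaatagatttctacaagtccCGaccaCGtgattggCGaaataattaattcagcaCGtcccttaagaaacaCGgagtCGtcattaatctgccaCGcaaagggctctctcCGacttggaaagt
HOXD4: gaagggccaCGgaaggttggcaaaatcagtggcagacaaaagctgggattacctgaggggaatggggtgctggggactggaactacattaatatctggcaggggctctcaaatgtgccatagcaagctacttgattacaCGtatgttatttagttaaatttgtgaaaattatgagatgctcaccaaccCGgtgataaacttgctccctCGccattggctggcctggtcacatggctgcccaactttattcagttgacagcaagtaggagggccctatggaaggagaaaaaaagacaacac
HOXD8: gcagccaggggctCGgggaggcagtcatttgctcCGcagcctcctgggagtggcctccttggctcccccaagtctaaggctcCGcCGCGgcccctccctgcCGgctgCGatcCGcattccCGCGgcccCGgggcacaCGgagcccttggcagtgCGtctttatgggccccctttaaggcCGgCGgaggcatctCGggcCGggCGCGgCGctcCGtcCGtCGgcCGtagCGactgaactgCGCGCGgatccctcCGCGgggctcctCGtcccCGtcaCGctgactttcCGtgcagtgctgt
HOXD10: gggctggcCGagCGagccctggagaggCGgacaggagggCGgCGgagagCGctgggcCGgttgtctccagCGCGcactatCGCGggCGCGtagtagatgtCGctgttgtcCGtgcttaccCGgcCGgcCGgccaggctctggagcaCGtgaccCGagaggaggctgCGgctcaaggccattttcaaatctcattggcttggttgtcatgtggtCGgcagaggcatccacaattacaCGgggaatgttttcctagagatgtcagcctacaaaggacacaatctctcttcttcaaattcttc

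The expressed HOXD1, HOXD3 and HOXD4 held 36, 25 and 4 CG, and the silent HOXD8 and HOXD10 held 34 and 23. Among all RefSeq windows of this length, 12.7% held at least as many CG as HOXD1, 32.0% as HOXD3, 75.5% as HOXD4, 15.6% as HOXD8 and 35.8% as HOXD10. A window was found for 16 of the 33 members, 15 of them with a single window. The 11 silent members among those 15 had a median of 24 CG (range 11 to 34), the 4 others a median of 30.5 (range 4 to 44), and all 35116 windows a median of 14. The range of the 4 expressed members thus spanned that of the silent ones, and the windows are given as a description.

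The row HOXC4-HOXC5-HOXC6 had 1.8, 2.01 and 2.48 FPKM with EZH2 shRNA, 3.12, 3.78 and 4.04 FPKM with ZRANB1 siRNA, 3.81, 5.24 and 6.27 FPKM with scramble siRNA, and 1.21, 2.17 and 3.07 FPKM with scramble shRNA. It was higher with scramble siRNA than with scramble shRNA (log2 fold change 0.98, limma adjusted p = 0.00259). The row was not called with EZH2 shRNA or ZRANB1 siRNA, at limma adjusted p of 0.99 and 0.278. The 3 genes cannot be told apart in it. The row HOXA10-HOXA9 had 0.0457, 0.0533 and 0.0626 FPKM with EZH2 shRNA and was listed at 0 in the other 9 values. All 3 of its values above 0 were thus in EZH2 shRNA libraries, each below 0.1 FPKM. It was below the filter. With no filter it was called for EZH2 shRNA against scramble shRNA (limma adjusted p = 0.0164, log2 fold change 0.0757). The row entered that fit only through its EZH2 shRNA values, and its 9 values at 0 have no spread. That call therefore gives no support for a change. The difference of effects was not called for this row in the same fit (limma adjusted p = 0.0534).

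Some members share genome with other genes, and the strand setting of the counting is not given in the sources used here. In RefSeq, HOXB4 lies in the span of HOXB3, HOXD3 and HOXD4 overlap, and HOXB2 and HOXB3 overlap the antisense gene HOXB-AS1. HOXB5 and HOXB6 overlap HOXB-AS3, HOXC10 overlaps HOXC-AS3, and HOXD1 overlaps HAGLR. Values of these members can hold reads of the partner. HOXB7, HOXB8, HOXB9, HOXC8, HOXC9 and HOXA13 overlap no other RefSeq gene. HOXB-AS1 was at 0 in 9 of the 12 values and HOXC-AS3 in all 12. HAGLR averaged 6.33 FPKM and HOXB-AS3 0.868 FPKM over the 12 values, the first above HOXD1 and the second below HOXB5 and HOXB6.

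Of 23 listed noncoding RNAs of the clusters, 14 were in the table and 2, HAGLR and HOXB-AS3, passed the filter. Neither was called by limma in any comparison, with 1 at an unadjusted p below 0.05 for EZH2 shRNA against scramble shRNA. HOTAIR, the HOXC noncoding RNA known for its link to Polycomb repressive complex 2, had 1 value above 0, 0.0404 FPKM with EZH2 shRNA. HOTTIP, at the far end of HOXA beside HOXA13, reached 0.0434 FPKM.

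The TALE homeodomain proteins PBX, MEIS and PKNOX bind DNA together with HOX proteins, and 8 of 9 passed the filter. limma called 0 of them in the EZH2 shRNA and ZRANB1 siRNA comparisons, with 2 and 0 at an unadjusted p below 0.05. Between the controls 2 were lower with scramble siRNA, beside 23.5% of all genes. PBX2 averaged 21.0 ± 0.632 FPKM with scramble siRNA and 24.9 ± 0.262 FPKM with scramble shRNA, with a limma adjusted p of 0.0115. PBX4 averaged 3.86 ± 0.313 FPKM with scramble siRNA and 5.61 ± 1.09 FPKM with scramble shRNA, with a limma adjusted p of 0.0384. All 6 ParaHox and CDX genes, the closest relatives of the clusters, were below the filter.

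Among 32 tested Polycomb and trithorax genes, which repress and maintain HOX expression, EZH2 was the 1 called with EZH2 shRNA, and it was lower. In that comparison 5.73% of all genes tested were called. With ZRANB1 siRNA 2 were higher and 2 lower, beside 14.7% of all genes called. EZH2, with its values given above, was 1 of the 2 lower. JARID2, a partner of Polycomb repressive complex 2, averaged 13.2 ± 0.584 FPKM with ZRANB1 siRNA and 8.83 ± 0.103 FPKM with scramble siRNA (limma adjusted p = 1.87e-04). KDM6B, a demethylase of lysine 27 of histone H3, averaged 4.18 ± 0.34 FPKM with ZRANB1 siRNA and 2.65 ± 0.459 FPKM with scramble siRNA (limma adjusted p = 0.018). With scramble shRNA, JARID2 averaged 15.6 ± 0.195 FPKM and KDM6B 4.93 ± 0.541 FPKM. Both ZRANB1 siRNA means thus lay between those of the 2 controls. Between the controls 7 were higher and 8 lower with scramble siRNA, near the 46.6% of all genes called there. CBX2, a subunit of Polycomb repressive complex 1, averaged 12.9 ± 1.22 FPKM with scramble siRNA and 6.65 ± 0.375 FPKM with scramble shRNA (limma adjusted p = 3.04e-05). JARID2 and KDM6A were called there too, both lower with scramble siRNA. KDM6A averaged 4.08 ± 0.378 FPKM with scramble siRNA and 8.21 ± 0.602 FPKM with scramble shRNA.

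Of 17 listed neighbours of the clusters, 8 passed the filter. MTX2, which flanks HOXD, was the 1 called with EZH2 shRNA, at 23.1 ± 2.08 FPKM against 32.7 ± 2.65 FPKM with scramble shRNA (limma adjusted p = 0.0114). ATP5G2, near HOXC, was the 1 called with ZRANB1 siRNA, at 268 ± 11.4 FPKM against 354 ± 27.5 FPKM with scramble siRNA (limma adjusted p = 0.0106). Of all genes tested, 5.73% were called with EZH2 shRNA and 14.7% with ZRANB1 siRNA. A count of 1 in 8 is thus not a result about the neighbours. Between the controls 2 neighbours were higher and 3 lower with scramble siRNA, beside the same 46.6% of all genes.

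Of 37 tested homeobox genes outside the clusters, 3 were lower with EZH2 shRNA, 4 were higher and 3 lower with ZRANB1 siRNA, and 14 were higher and 7 lower with scramble siRNA than with scramble shRNA. Of all genes tested, 5.73% were called with EZH2 shRNA, 14.7% with ZRANB1 siRNA and 46.6% between the controls, where 23.1% were higher and 23.5% lower. PAX8, a thyroid and kidney transcription factor, averaged 4.63 ± 0.178 FPKM with EZH2 shRNA and 7.85 ± 0.494 FPKM with scramble shRNA (limma adjusted p = 0.00156). It averaged 2.36 ± 0.167 FPKM with ZRANB1 siRNA and 0.713 ± 0.154 FPKM with scramble siRNA (limma adjusted p = 2.04e-05). NKX2-5, a heart transcription factor, averaged 17.8 ± 1.44 FPKM with scramble siRNA and 3.04 ± 0.216 FPKM with scramble shRNA (limma adjusted p = 1.85e-06).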

How the data were processed

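RNA-seq values of 12 libraries came from 1 table of 26006 rows, in which the authors deposited FPKM per gene. The submitters' processing notes name the build hg19 and the tools Cuffdiff 2.2.1 and Cufflinks 2.2.1, TopHat2 2.1.1 and SAMtools. For settings, annotation, strandedness and scaling, nothing is given in the sources used here. Because FPKM divides by library size, very abundant genes lower the values of others. Where a symbol had several rows (440 symbols), only the highest by mean entered. Values of a group stood in text order of their digits in all rows with 3 different values (15751, 15850, 15454 and 15773 rows for EZH2 shRNA, ZRANB1 siRNA, scramble siRNA and scramble shRNA), so columns named groups only, and no pairing, depth or scaling per library was available. That order leaves group means, SDs and each gene's limma test unchanged.

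log2(FPKM + 1) was tested with limma 3.58.1 in R 4.3.3, with 4 group means in 1 fit (8 residual degrees of freedom), a variance trend on intensity and adjustment by Benjamini-Hochberg over the 14709 genes averaging 0.1 FPKM or more. The steps were tested on simulated data. Exact permutation tests used scipy 1.17.1. Alternatives changed the pseudocount, filter, trend, duplicate rows, groups fitted, scaling and, after a seeded random order within each row, left out 1 value of a group.

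The HOX members, other lists and tests were chosen with earlier results of these data known. A symbol that the rule also matches is not reported here. Members with a mean of at least 1 FPKM in any group, or called, are given with all values, the others by group means or range, and from other lists up to 3 called genes per comparison could be named.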

Additional observations from a re-analysis of the deposited data

Results flagged for a closer look

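HOXB9 and HOXB2 were the 2 of 15 tested members called by the interaction contrast in limma, beside 9.16% of all genes tested. A count of 2 in 15 is near that share. For HOXB9 the ZRANB1 siRNA and EZH2 shRNA means both lay between the 2 control means. The HOXB9 call held in 12 of 12 fits that left out 1 value, and the HOXB2 call in 6 of 12. For HOXB9 the ZRANB1 siRNA effect minus the EZH2 shRNA effect was -0.69 on the log2(FPKM + 1) scale, with a mean of 8.78 ± 0.807 FPKM with ZRANB1 siRNA and 11.2 ± 0.367 FPKM with scramble siRNA, and of 4.15 ± 0.405 FPKM with EZH2 shRNA and 2.98 ± 0.282 FPKM with scramble shRNA (SD, n = 3 each). For HOXB2 the difference was -0.53, with a mean of 0.0198 ± 0.0342 FPKM with ZRANB1 siRNA and 0.357 ± 0.115 FPKM with scramble siRNA, and of 0.231 ± 0.0589 FPKM with EZH2 shRNA and 0.135 ± 0.122 FPKM with scramble shRNA.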

How the results depend on the processing

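No paired analysis was possible because the columns do not follow 1 library from row to row. The call of 1 HOX gene with EZH2 shRNA became 0 with no filter and with the 2 compared groups alone. A minimum absolute log2 fold change of 1 left 0 calls with EZH2 shRNA, 0 with ZRANB1 siRNA, 1 between the controls and 0 for the difference of effects. A filter at a mean of 1 FPKM, which kept 7 members, left 2 calls between the controls and 1 for the difference of effects. With 1 value left out, calls ran from 0 to 1 with EZH2 shRNA, 0 to 3 with ZRANB1 siRNA, 5 to 8 between the controls and 1 to 2 for the difference of effects. The 0 with ZRANB1 siRNA came from leaving out the scramble siRNA value placed first. Silent members numbered 17 at a threshold of 0.05 FPKM, 24 at 0.5 FPKM and 16 where no value could reach 0.1 FPKM. Scaling by 1 factor per group (0.9912 to 1.011) changed no HOX call.

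Some uncalled log2 fold changes near 0 changed sign or reached 0 with 1 value left out. With EZH2 shRNA, HOXB5 ran from -0.1 to 0.07, HOXB6 from -0.16 to 0.05, HOXC9 from -0.07 to 0.1 and HOXC4-HOXC5-HOXC6 from -0.22 to 0.22. With ZRANB1 siRNA, HOXB5 ran from -0.15 to 0.02, HOXB8 from -0.24 to 0.01 and HOXD3 from -0.11 to 0.14. Between the controls, HOXD1 ran from -0.05 to 0.13 and HOXD3 from -0.24 to 0. The cause was not tested. Library depth is unknown, so no detection limit can be set for the silent members.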
